A study of Mus musculus with 9 samples.

Results

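The genes described here are 10 imprinted genes with roles in growth control, chosen by name: Cdkn1c, Grb10, Plagl1, Ndn, Peg3, Dlk1, Mest, Peg10, H19 and Meg3. A gene was measured by the probe set whose annotation gives its symbol alone, and by the brightest where there were several. This gave levels for 9 of the 10 genes, out of 22180 genes with such a probe set. H19 has no probe set of its own in the annotation, since the probe set that names it also names Mir675, so no level is given for it. All 9 genes lay above the array median on every array and were among the 13012 genes tested.

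An imprinted gene is expressed mainly from the copy inherited from the mother or from that inherited from the father, and the choice is set by DNA methylation laid down in the germ line. Cdkn1c, Grb10, H19 and Meg3 are expressed mainly from the maternal copy, and Plagl1, Ndn, Peg3, Dlk1, Mest and Peg10 from the paternal one; in neurons of the mouse, Grb10 is known to use the paternal copy. As a group these genes are known for setting the growth of the fetus and placenta, with many paternally expressed members promoting growth and many maternally expressed ones restraining it. The arrays measure the RNA of both copies together, so nothing here bears on which copy was used.

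The study hybridised RNA from 3 kinds of culture of embryonic cortex, all from wild-type CD1 mice, to 9 Affymetrix mouse arrays, 3 per kind. In the co-culture, neurons from embryonic day 16 were grown for 4 days, precursors from embryonic day 13 were added, and both were kept together for 1 day. Neurons alone came from embryonic day 16 and were kept for 5 days in total by one label, or 4 by another. Precursors alone came from embryonic day 13 and were kept for 1 day. No group carried a transgene or a drug by the labels, and neurons and precursors differ in embryonic age and time in culture as well as in cell type, which cannot be told apart here. Levels are log2 values made by RMA, which brings the arrays to a shared distribution and condenses each probe set's probes into a single value, so that 1 unit is a 2-fold difference. RMA takes medians across the arrays, and 30.8% of the tested genes had exactly the same value on 2 or more arrays, 3877 of these 4010 genes at their median of the 9. Such repeats fell within the co-culture for 1510 genes, within neurons for 331 and within precursors for 736, and may make the spread there too small. Arrays have no read depth, and 3 arrays per group limit the precision. Levels of different genes are not compared, since each probe set has its own response.

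The first comparison asked how the separate cultures differ. Of the 9 genes, 6 were lower in neurons than in precursors (Grb10, Mest, Dlk1, Plagl1, Peg3 and Ndn), 1 was higher (Meg3), and Cdkn1c and Peg10 did not pass the test at an adjusted p of 0.05 (limma, Benjamini-Hochberg over all tested genes). Over all tested genes 63.1% passed in this comparison, 35.2% lower and 28.0% higher in neurons. The members' median log2 difference was -0.37, beside -0.02 over all tested genes. Over the 48 other listed imprinted genes that were tested it was 0.07. The members were chosen with earlier results of these data known, so their median is not read as a trait of imprinted genes. Grb10 and Mest passed and differed at least 2-fold, which 10.3% of all tested genes did. For 7 of 9 members the neuron and precursor arrays did not overlap, and 66.4% of all tested genes were like that.

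**Figure D1:**
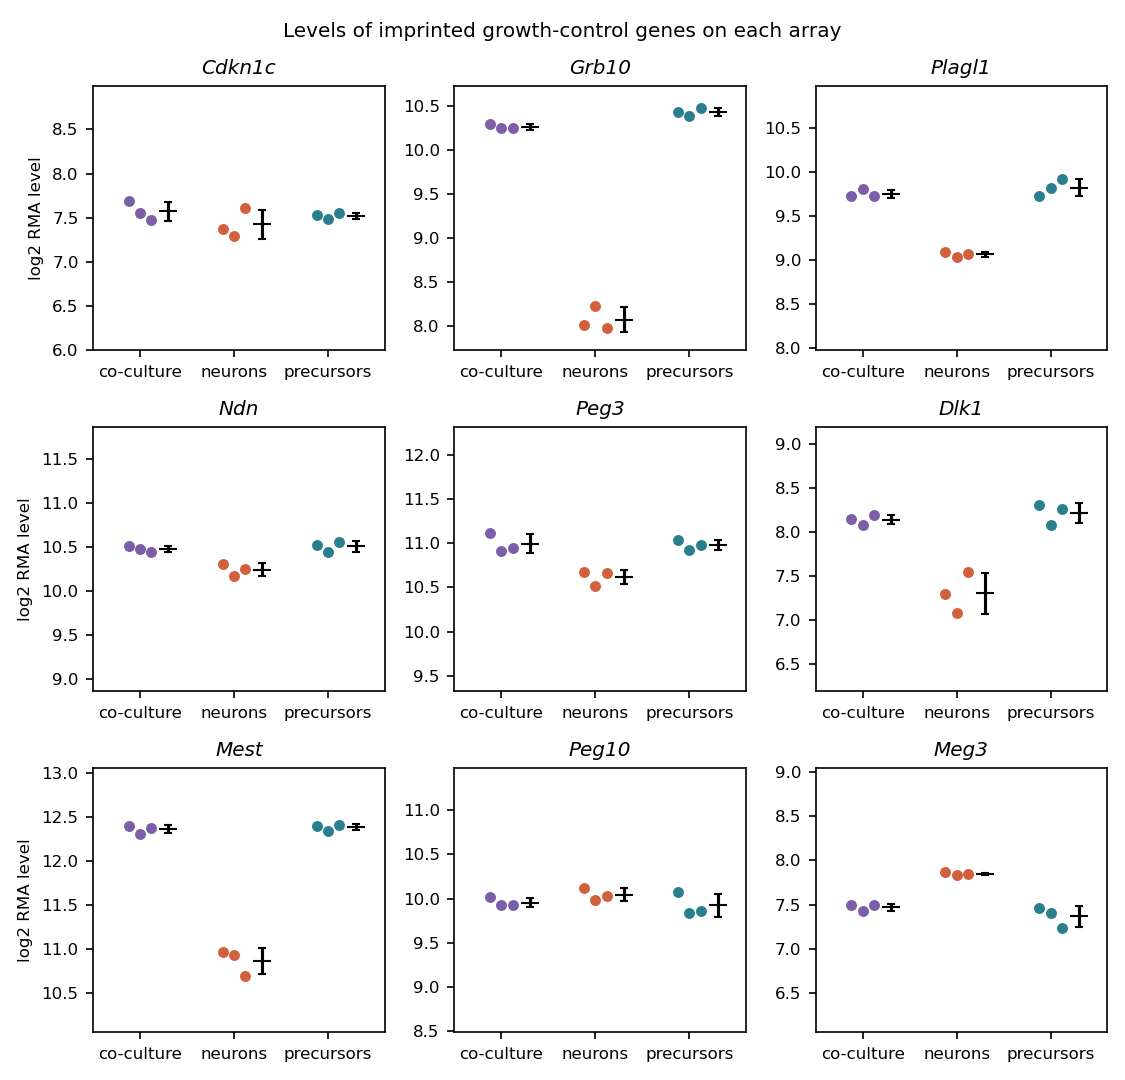
Log2 RMA level (vertical axis, the same span of 3 units in each panel) of each of the 9 genes in co-culture, neurons and precursors; coloured points are arrays and the black bar is the mean with the SD of 3 arrays. Grb10 lies at 7.98 to 8.24 on the neuron arrays, below all co-culture and precursor arrays, and Meg3 is the reverse.

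Among the genes that restrain growth or cell division, Grb10 differed most. Grb10 encodes an adaptor protein that binds the insulin and IGF1 receptors and dampens their signalling. Its levels were 8.01, 8.24 and 7.98 on the neuron arrays, against 10.44, 10.38 and 10.48 on the precursor arrays. The arrays of the 2 cultures were far apart, and neuron replicate 2 was the highest of its group. Grb10 was 5.13-fold lower in neurons (log2 difference -2.36, SE 0.0679, adjusted p = 3.81e-09).

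Plagl1 encodes a zinc-finger transcription factor, also called Zac1, that can halt the cell cycle and controls other imprinted genes. It read 9.09, 9.03 and 9.07 in neurons, against 9.73, 9.82 and 9.92 in precursors. All neuron arrays were below all precursor arrays, a 1.69-fold lower level in neurons (log2 difference -0.76, SE 0.0554, adjusted p = 1.44e-06). A second probe set of Plagl1 read between 3.39 and 3.63 on all 9 arrays, near the lowest value of the table (2.95), and was not used.

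Ndn encodes necdin, a MAGE family protein of postmitotic neurons that binds E2F1 and limits division. Its levels were 10.31, 10.16 and 10.25 in neurons, against 10.52, 10.44 and 10.55 in precursors. The groups did not overlap, but the step was small, with Ndn 1.20-fold lower in neurons (log2 difference -0.26, SE 0.0524, adjusted p = 0.00144). Peg3, a large zinc-finger protein linked to TNF and p53 pathways and to maternal behaviour, read 10.67, 10.52 and 10.66 in neurons, against 11.04, 10.93 and 10.99 in precursors. Peg3 was also lower on all neuron arrays, 1.29-fold (log2 difference -0.37, SE 0.0667, adjusted p = 8.04e-04). Another probe set that names Peg3 together with a further symbol was not used.

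Cdkn1c encodes p57Kip2, an inhibitor of cyclin-dependent kinases that helps cortical precursors leave the cell cycle. It read 7.37, 7.30 and 7.61 in neurons, against 7.53, 7.49 and 7.55 in precursors. Neuron replicate 3 lay above all precursor arrays and the other neuron arrays below them. The difference of -0.10 (95% interval -0.28 to 0.09, adjusted p = 0.338) did not pass. Without neuron replicate 3 it was -0.19 and passed (adjusted p = 0.0366).

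Dlk1 is the ligand among these genes, a membrane protein related to Notch ligands that keeps progenitors of several tissues undifferentiated and has a secreted form in neurogenic niches. It read 7.29, 7.08 and 7.54 in neurons, against 8.30, 8.08 and 8.26 in precursors. Its neuron arrays varied more than those of any other member (SD 0.232), yet all were below the precursor arrays. Dlk1 was 1.88-fold lower in neurons (log2 difference -0.91, SE 0.107, adjusted p = 4.06e-05). The neuron arrays were not far above the array medians (6.75 to 6.79), so its fold is uncertain.

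Mest, also called Peg1, encodes a membrane enzyme of the hydrolase fold family found in mesoderm and in the embryonic brain. Its levels were 10.97, 10.94 and 10.70 in neurons, against 12.40, 12.34 and 12.42 in precursors. The precursor arrays lay close together and neuron replicate 3 was the lowest of all. Mest was 2.86-fold lower in neurons (log2 difference -1.52, SE 0.0701, adjusted p = 6.01e-08).

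Peg10 derives from a retrotransposon, keeps its Gag-like and Pol-like parts and is needed for the placenta. It read 10.12, 9.98 and 10.03 in neurons, against 10.08, 9.84 and 9.86 in precursors. The groups overlapped through precursor replicate 1. The difference of 0.12 (95% interval -0.04 to 0.28, adjusted p = 0.173) did not pass. It was 0.19 and passed without precursor replicate 1 (adjusted p = 0.0188), and it was 0.22 and passed with cyclic loess normalization (adjusted p = 0.0314).

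Meg3, the long non-coding RNA made from the maternal copy of the domain that holds Dlk1, ran the other way. Its levels were 7.86, 7.84 and 7.84 in neurons, against 7.46, 7.41 and 7.23 in precursors. The neuron arrays differed by little (SD 0.0133) and all exceeded the precursor arrays, 1.40-fold on average (log2 difference 0.48, SE 0.0590, adjusted p = 5.38e-05). Only the probe set that names Meg3 alone was read; 2 others that also name a miRNA gene were not used.

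**Figure D2:**
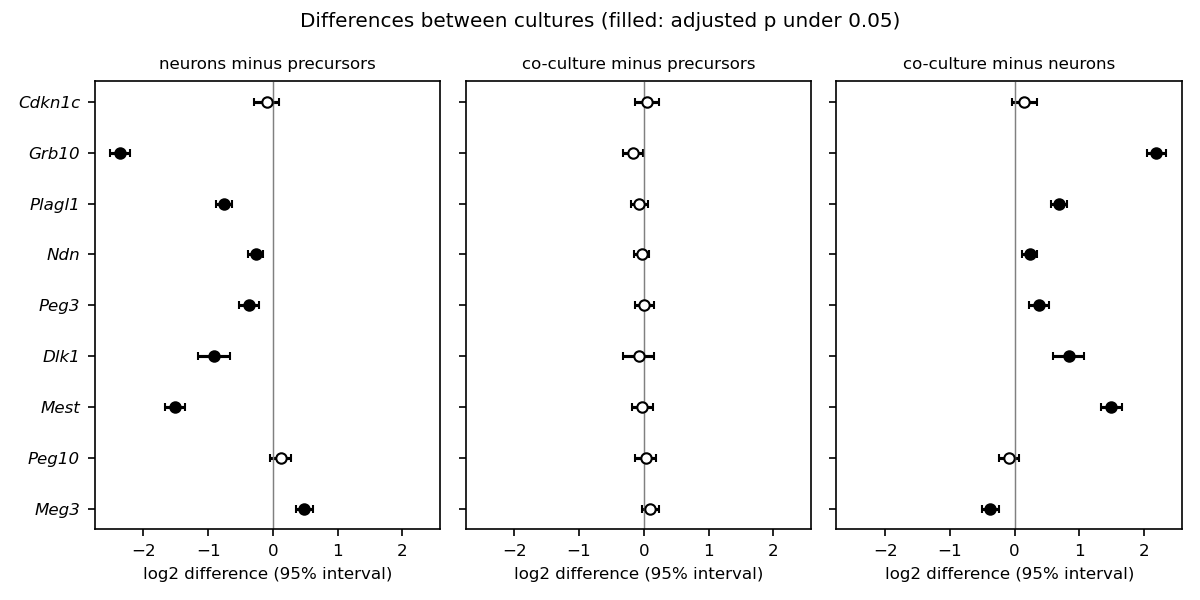
Log2 difference (horizontal axis) of each gene in 3 comparisons, with its 95% interval from limma; filled points have an adjusted p under 0.05. The 7 filled genes of neurons minus precursors are filled again, with the opposite sign, in co-culture minus neurons, and none is filled in co-culture minus precursors.

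The start sites of 4 of these genes are shown because Grb10 and Mest differed most, and Dlk1 and Meg3 lie in the same domain and differed in opposite directions. RefSeq's table for GRCm38.p6 held promoter windows, 250 bases before to 50 bases after an annotated start, for 7 of the 10 genes, and not for Cdkn1c, Peg10 and H19. Each is printed 5′ to 3′ with every CpG, the dinucleotide that carries DNA methylation, in capitals; of several windows of a gene, the one with most CpG is shown. Methylation was not measured.
Grb10, chr11:12037371-12037670, minus strand: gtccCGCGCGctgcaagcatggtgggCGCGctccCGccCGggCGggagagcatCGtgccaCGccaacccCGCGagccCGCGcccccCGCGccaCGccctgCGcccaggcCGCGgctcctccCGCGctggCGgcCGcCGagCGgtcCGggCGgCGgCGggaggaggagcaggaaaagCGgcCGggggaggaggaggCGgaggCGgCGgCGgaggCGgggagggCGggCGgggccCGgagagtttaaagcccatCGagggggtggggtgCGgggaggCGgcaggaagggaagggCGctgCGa
Mest, chr6:30737800-30738099, plus strand: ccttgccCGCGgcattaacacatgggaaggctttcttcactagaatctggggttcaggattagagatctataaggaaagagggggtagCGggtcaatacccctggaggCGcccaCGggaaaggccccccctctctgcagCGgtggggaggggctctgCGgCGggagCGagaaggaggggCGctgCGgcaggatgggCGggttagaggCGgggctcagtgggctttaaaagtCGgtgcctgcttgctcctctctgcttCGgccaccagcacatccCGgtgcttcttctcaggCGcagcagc
Dlk1, chr12:109452573-109452872, plus strand: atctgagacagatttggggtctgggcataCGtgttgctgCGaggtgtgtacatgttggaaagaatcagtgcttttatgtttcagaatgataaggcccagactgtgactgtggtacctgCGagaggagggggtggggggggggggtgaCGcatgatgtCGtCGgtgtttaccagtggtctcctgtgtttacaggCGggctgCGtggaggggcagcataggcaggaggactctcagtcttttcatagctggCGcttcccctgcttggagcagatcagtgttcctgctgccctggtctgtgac
Meg3, chr12:109540746-109541045, plus strand: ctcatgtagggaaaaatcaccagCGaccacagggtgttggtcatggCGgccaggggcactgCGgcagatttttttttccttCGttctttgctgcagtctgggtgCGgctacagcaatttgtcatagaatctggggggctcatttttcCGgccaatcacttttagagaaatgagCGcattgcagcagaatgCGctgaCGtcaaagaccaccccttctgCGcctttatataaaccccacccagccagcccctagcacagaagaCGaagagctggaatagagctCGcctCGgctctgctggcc

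The Grb10 window held 45 CpG, and 1.93% of all 32851 windows held as many or more. Grb10's other window held 9 (45.8%). The windows of Mest and Meg3 with fewest CpG held 8 and 1. For these genes the shown window was chosen for its CpG, while the shares are over all windows, not chosen in this way. The Mest window held 17 (31.4% of windows held as many or more), the Meg3 window 13 (37.9%) and the Dlk1 window 9 (45.8%), and the median over all windows was 7. The letters TATAAA, searched on both strands, were in the Meg3 window, starting 25 bases before the start site and overlapping a match on the other strand, and in 13.6% of all windows. They were in no window of the other 6 genes. CCAAT, on both strands, was in the Meg3 and Peg3 windows and in 37.4% of all windows. GGGGCCCC, a palindrome that Plagl1 protein can bind, was in the Peg3 window and in 1.08% of all windows.

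The next comparison set the co-culture against precursors alone. None of the 9 genes passed the test in it (limma, adjusted p), and 1 had an unadjusted p under 0.05, while 8.42% of all tested genes passed, 8.22% higher and 0.200% lower in the co-culture, and 0.407% passed with a difference of at least 2-fold. The 95% intervals of the log2 differences all lay between -0.32 and 0.24, which bounds these differences but does not show that they are absent. Grb10 read 10.30, 10.25 and 10.25 in the co-culture, just below the 10.38 to 10.48 of precursors, and was the member whose groups did not overlap, as for 24.8% of all tested genes. Co-culture replicates 2 and 3 held exactly the same Grb10 value, so the SD of 0.0308 there may be too small. Its difference of -0.17 (95% interval -0.32 to -0.02) had an adjusted p of 0.216. Without neuron replicate 2 the difference stayed at -0.17 and passed (adjusted p = 0.0427 by limma). No neuron array enters this difference, but the model pools the spread over all the groups. The difference also passed at -0.23 with each array centred on its median of the tested genes (adjusted p = 0.0440), a setting chosen after seeing the data.

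For the other members the arrays of the 2 cultures overlapped. Mest read 12.40, 12.31 and 12.38 in the co-culture, inside or just under the precursor range of 12.34 to 12.42 (difference -0.02, 95% interval -0.18 to 0.13, adjusted p = 0.930). Dlk1 read 8.15, 8.08 and 8.19, against 8.08 to 8.30 in precursors (difference -0.08, 95% interval -0.32 to 0.16, adjusted p = 0.829). Plagl1 averaged 9.75 ± 0.0461 in the co-culture and 9.82 ± 0.0967 in precursors (SD, n = 3 each), Ndn 10.47 ± 0.0352 and 10.50 ± 0.0601, and Peg3 11.00 ± 0.108 and 10.99 ± 0.0577. Their adjusted p-values were 0.659, 0.868 and 0.968. Cdkn1c averaged 7.57 ± 0.108 in the co-culture and 7.52 ± 0.0326 in precursors, and Peg10 9.96 ± 0.0560 and 9.92 ± 0.132 (adjusted p = 0.853 and 0.904). Meg3 read 7.49, 7.43 and 7.49 in the co-culture, above 2 of the 3 precursor arrays but not above replicate 1 in every case, with replicates 1 and 3 of the co-culture exactly equal (difference 0.10, 95% interval -0.03 to 0.24, adjusted p = 0.443).

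Against neurons alone, the co-culture was higher for the same 6 genes and lower for Meg3. This comparison shares its neuron arrays with the first one and its co-culture arrays with the second, so it is not separate evidence. Grb10 was 4.56-fold higher in the co-culture than in neurons, Mest 2.82-fold, Dlk1 1.78-fold, Plagl1 1.61-fold, Peg3 1.30-fold and Ndn 1.18-fold, and Meg3 was 1.30-fold lower (adjusted p from 2.09e-08 to 0.00333). The Dlk1 fold rests on neuron arrays not far above the array medians and is uncertain. Over all tested genes 60.6% passed, 35.7% higher and 24.9% lower in the co-culture, and 58.9% of the calls were higher, or 41.4% with arrays centred on the tested genes. Grb10 and Mest were the members past 2-fold (6.55% of all tested genes), and the arrays of 7 of 9 members did not overlap (65.4%). The smallest called log2 difference, Ndn at 0.23, did not pass with cyclic loess (0.13, adjusted p = 0.0574) or with arrays centred on the tested genes (0.12, adjusted p = 0.0893). Cdkn1c (0.15, adjusted p = 0.146) did not pass but did without neuron replicate 3 (0.24, adjusted p = 0.0135). Peg10 (-0.09, adjusted p = 0.305) passed only with arrays centred on the tested genes (-0.20, adjusted p = 0.0396).

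Of the 7 genes called between neurons and precursors, Grb10, Mest, Dlk1, Plagl1 and Ndn had means that rose from neurons through the co-culture to precursors. The means of Meg3 ran in the opposite order. For none of the 7, Peg3 included, did the co-culture and precursor means differ at an adjusted p of 0.05. Their co-culture and precursor arrays overlapped, other than those of Grb10, while the neuron arrays stood apart. The co-culture means of Cdkn1c and Peg3 were just above both others, but no member passed a test of lying outside the separate cultures (limma, larger of 2 one-sided p-values; the lowest unadjusted p was 0.270, for Cdkn1c above both), and no tested gene of the 13012 passed that test either (0 in both directions, with 141 or 1.08% above and 127 or 0.976% below at an unadjusted p under 0.05).

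The co-culture holds RNA of both cell populations, so each level was also set against the level that mixing would give. The apparent neuron share of its RNA was 16.5% ± 1.08 (SD, n = 3), from genes other than these that differed at least 4-fold between the separate cultures. No member departed from the mixture predicted at this share (limma, 0 of 9, also at an unadjusted p under 0.05, which 8.26% of all tested genes passed), and 0.392% of all tested genes did. Mest had the widest departure, 12.36 observed in the co-culture against 12.22 predicted (0.14, 95% interval -0.01 to 0.29, adjusted p = 0.631 by limma). Grb10 was at 10.26 observed and 10.23 predicted, and Meg3 at 7.47 and 7.46. The other 6 departures lay between 0.01 and 0.07. The error of the share is not part of these intervals.

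**Figure D3:**
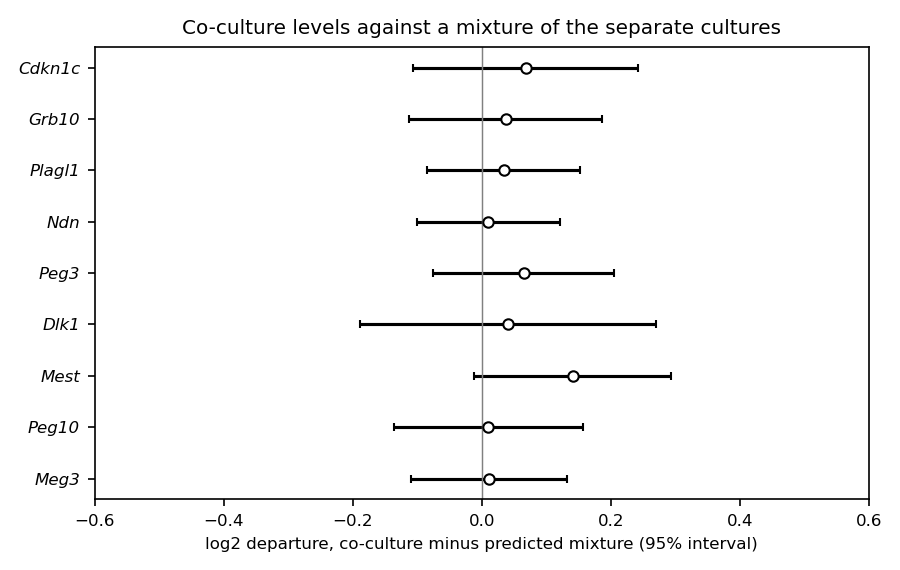
Log2 departure (horizontal axis) of the mean co-culture level from the level predicted by mixing the neuron and precursor cultures at an apparent neuron share of 16.5%, with 95% intervals from limma; open points have an adjusted p of 0.05 or more. All 9 intervals include 0, and Mest lies farthest from it at 0.14.

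Read gene by gene, the apparent neuron share was 13.7% ± 2.38 (SD, n = 3 co-culture arrays) from Grb10, 2.37% ± 4.83 from Mest, 11.0% ± 7.56 from Plagl1, 10.8% ± 7.81 from Dlk1 and 18.8% ± 7.0 from Meg3. Ndn and Peg3, whose separate cultures differed less, gave 12.2% ± 14.2 and -3.99% ± 34.2, too spread to place. Genes at least 4-fold higher in neurons gave 22.6% ± 1.18 (105 genes) and those at least 4-fold higher in precursors 10.5% ± 2.20 (108 genes), so the share itself depended on the genes used.

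The pattern over the 9 arrays was compared with that of every other tested gene by the root-mean-square difference of log2 values, each gene centred on its own mean. The 2 nearest genes to Grb10 were Mcm6 (0.0197) and Mcm2 (0.0556), with log2 differences between neurons and precursors of -2.39 and -2.30. The nearest to Mest were Smo (0.0510) and Golm1 (0.0533), to Dlk1 Gse1 (0.0693) and Irf3 (0.0709), and to Plagl1 Coro2b (0.0284) and Mpdz (0.0448). Lgalsl (0.0404) and Sstr4 (0.0409) were nearest to Meg3, Ep300 (0.0345) and Ciapin1 (0.0353) to Ndn, and Cdk5rap3 (0.0382) and Morrbid (0.0425) to Peg3. Cdkn1c and Peg10 varied little, and their nearest genes were Cog2 (0.0433) and Khnyn (0.0442), and Fam20b (0.0386) and BC051226 (0.0404). Among the members themselves Ndn and Peg3 were the most alike (0.0774). Next came Cdkn1c with Ndn (0.107), with Peg3 (0.138) and with Peg10 (0.151), and then Plagl1 and Dlk1 (0.154). These values describe the arrays and carry no test.

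Imprinted genes lie in clusters, and neighbours in a domain often share a control region, so genes of the members' domains were read beside them. Of 64 listed neighbours, 46 had a named probe set and 30 were tested. In neurons 13 were higher than in precursors, 10 were lower and 7 did not pass, with a median log2 difference of 0.07. Of all tested genes 28.0% were higher and 35.2% lower. Of the 30 neighbours 3, Asb4, Cpa4 and Phactr2, had no neuron array above the array median and so passed the filter only through the cultures where they are high. All 3 are among the 10 counted as lower, so that count rests in part on the filter. Elsewhere in the genome 18 of 26 listed imprinted genes were tested, with 8 higher and 5 lower in neurons, beside the same shares of all genes. The most different of these were Kcnk9, a potassium channel gene (7.47-fold higher in neurons), Rasgrf1, a guanine nucleotide exchange factor for Ras, and Inpp5f, an inositol phosphatase (2.27-fold lower). Kcnk9 read 7.04, 6.90 and 7.49 in precursors, not far above the array medians (6.75 to 6.79), so its fold is uncertain. Rasgrf1 read 7.94, 8.27 and 7.89 in neurons and 6.73, 6.41 and 6.72 in precursors, where no array was above the array median, so no fold is given. It is among the 8 counted as higher, and passed the filter only through the cultures where it is high. Imprinting of many of these neighbours is limited to certain tissues.

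**Figure D4:**
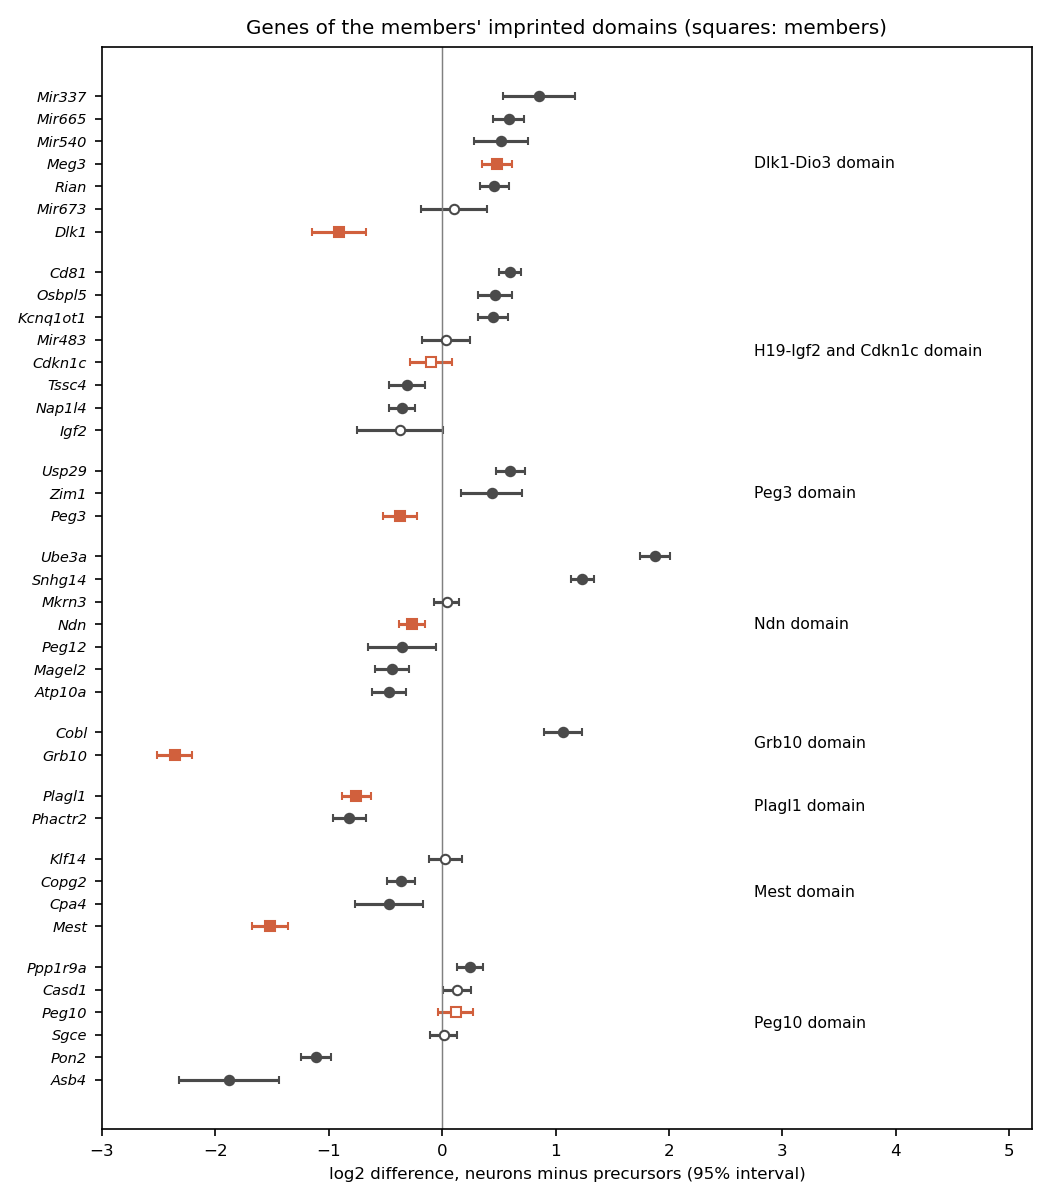
Log2 difference, neurons minus precursors (horizontal axis), with 95% intervals, for the members (squares) and the tested neighbours in their imprinted domains (circles); filled marks have an adjusted p under 0.05. In the Dlk1-Dio3 domain Dlk1 is left of 0 and the other 6 tested genes are right of it, from 0.10 to 0.86.

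In the Dlk1-Dio3 domain the tested neighbours are non-coding RNAs that, like Meg3, come from the maternal copy, and 4 of 5 were higher in neurons. Rian, a host of small nucleolar RNAs, read 10.73, 10.72 and 10.76 in neurons, against 10.14, 10.33 and 10.36 in precursors. The miRNA gene Mir337 read 7.65, 8.12 and 7.82 in neurons, against 6.88, 7.06 and 7.09 in precursors, and was 1.81-fold higher (log2 difference 0.86, SE 0.140, adjusted p = 4.09e-04). Its precursor arrays were not far above the array medians (6.75 to 6.79), so its fold is uncertain. Mir665 and Mir540 were higher by log2 differences of 0.59 and 0.52 (adjusted p = 1.75e-05 and 0.00188), each with all neuron arrays above all precursor arrays. Mir673 read 9.52, 9.12 and 9.66 in neurons, against 9.41, 9.29 and 9.29 in precursors, and did not pass (0.10, adjusted p = 0.516). Dlk1, a paternally expressed gene of the domain, was lower, and 5 of 6 tested genes on its maternal side were higher, Meg3 among them. Of all tested genes 28.0% were higher and 63.1% passed in either direction. Mir337, Mir540 and Mir665 lie close together, by the positions given below, and whether their probe sets read a shared longer RNA was not tested. The 5 are therefore not a count of independent genes. In the co-culture none of the 5 neighbours passed against precursors. Mir379, at 5.45 in the co-culture, 6.33 in neurons and 5.10 in precursors, and Mir411, at 5.14, 5.71 and 4.95 in the same cultures, were below the filter and not tested. So were Mir370, at 5.56, 5.64 and 5.49, and Dio3, at 5.27, 5.22 and 5.17 in the same order of cultures.

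The mature sequences of the 3 miRNA genes that were higher in neurons are given from RefSeq (GRCm38.p6), 5′ to 3′, with the seed, bases 2 to 8, in capitals. These probe sets cannot tell a mature miRNA from its longer precursor RNA.
mmu-miR-337-5p, chr12:109585818-109585839, plus strand: cGGCGUCAugcaggaguugauu
mmu-miR-337-3p, chr12:109585850-109585871, plus strand: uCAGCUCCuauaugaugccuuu
mmu-miR-540-5p, chr12:109586085-109586107, plus strand: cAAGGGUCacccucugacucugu
mmu-miR-540-3p, chr12:109586122-109586141, plus strand: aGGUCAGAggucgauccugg
mmu-miR-665-5p, chr12:109586331-109586356, plus strand: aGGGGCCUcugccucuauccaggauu
mmu-miR-665-3p, chr12:109586368-109586387, plus strand: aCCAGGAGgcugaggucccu
The 6 sequences carry 6 distinct seeds, so no pair shares its seed.

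Beside Ndn lie the genes of the Prader-Willi and Angelman region, of which 2 were higher in neurons, 3 were lower and Mkrn3 did not pass. Ube3a, the ubiquitin ligase lost in Angelman syndrome, averaged 10.93 in neurons and 9.05 in precursors, 3.67-fold higher in neurons (adjusted p = 6.16e-09). Snhg14, the long RNA that overlaps it on the opposite strand, was 2.36-fold higher (adjusted p = 1.14e-08), and since the sources used here do not say how the probes treat strand, the overlap of these genes makes both values uncertain. Atp10a was 1.38-fold lower in neurons, and Magel2 and Peg12 differed by -0.44 and -0.35 (adjusted p = 2.49e-04 and 0.0423), the same direction as Ndn. In the co-culture Ube3a and Snhg14 were higher than in precursors, at 0.51 and 0.28 (adjusted p = 5.40e-04 and 0.00329). They and Cd81, at 0.18, were the 3 neighbours of 30 that passed there, all higher, beside 8.22% of all tested genes, and Cd81 (adjusted p = 0.0294) did not pass with the replicate block (0.0557).

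In the Peg3 domain Usp29 (0.60) and Zim1 (0.44) were higher in neurons while Peg3 was lower. Around Mest, Copg2 (-0.36) was lower, as Mest was, Cpa4 averaged 6.56 in neurons, with no array above the array median, and 7.03 in precursors (adjusted p = 0.0114), and Klf14 (0.03, adjusted p = 0.728) did not pass. Near Plagl1, Phactr2 read 6.64 to 6.76 in neurons, close to but not above the array median, and 7.47 to 7.57 in precursors (adjusted p = 2.31e-06). Near Grb10, Cobl was 2.09-fold higher, but it read 6.89, 6.82 and 6.94 in precursors, just above the array medians (6.75 to 6.79), so its fold is uncertain. In the Peg10 domain, where Peg10 did not pass, Asb4 read 6.43, 6.02 and 5.65 in neurons, against 8.07, 7.61 and 8.06 in precursors, and Pon2 read 6.68, 6.65 and 6.87 in neurons, against 7.82, 7.82 and 7.89 in precursors. Both were lower in neurons (adjusted p = 1.78e-05 and 1.73e-07), with 0 and 1 neuron arrays above the array median, so no fold is given. Ppp1r9a was 1.19-fold higher, and Sgce, which shares a control region with Peg10, differed by 0.01 (adjusted p = 0.853). In the domain of Cdkn1c, H19 and Igf2, Cd81 (1.51-fold), Osbpl5 (1.38-fold) and Kcnq1ot1 (1.37-fold) were higher in neurons, and Nap1l4 (1.28-fold, adjusted p = 1.49e-04) and Tssc4 (1.24-fold, adjusted p = 0.00368) were lower. Igf2, the growth factor next to H19, averaged 6.96 in neurons and 7.33 in precursors, and the difference of -0.37 (adjusted p = 0.0783) did not pass.

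Markers of cell populations also differed between the cultures, and their part in these results was not tested. Beside the counts below, 28.0% of all tested genes were higher in neurons than in precursors and 35.2% were lower. The lists are short, so counts near these shares are not read as a difference in a cell type. All 5 tested genes of cycling cells and all 8 of radial precursors were lower in neurons. The log2 of their summed linear levels was 9.40 to 9.80 and 13.21 to 13.44 on the neuron arrays, against 12.33 to 12.39 and 14.16 to 14.24 on the precursor arrays. All 4 markers of intermediate progenitors were lower too. Of the 7 tested neuron markers 6 were higher in neurons. Endothelial markers were lower in neurons in 4 of 4 tested cases, led by Cdh5 at -1.21. Their sum, over all 7 markers with a named probe set, was 9.25 to 9.36 in neurons and 9.78 to 9.86 in precursors. Pecam1, Kdr and Flt1 averaged 6.60, 6.59 and 6.40 in neurons, below the array medians (6.75 to 6.79). Of pericyte markers 1 of 3 tested was lower and of meninges and mesenchyme markers 0 of 3 passed. Of microglia and macrophage markers 3 of 5 tested were lower, with Fcer1g at -1.01, and 1 was higher. Bub1, Eomes, Neurog1 and Tyrobp also averaged below the array medians in neurons, as Aif1, the higher microglia marker, did in precursors. Such genes, Pecam1, Kdr and Flt1 among them, passed the filter mainly through the cultures where they are high. Counts that hold them rest in part on the filter. Both tested astrocyte markers were higher, 3 of 6 interneuron markers were higher and 3 lower, 1 of 3 markers of oligodendrocyte precursors was lower, and 0 of 2 of the choroid plexus passed. Hbb-y, an embryonic globin of red blood cells, was at 8.76 in the co-culture, 7.21 in neurons and 8.51 in precursors. Background signal keeps any array value above 0, so absence of these cells cannot be read. In such mixed cultures fewer cells of a type and less RNA per cell cannot be told apart.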

How the data were processed

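Gene expression was measured in 9 cultures, 3 per group, grouped by the labels' titles. Per the submitters' processing notes, the authors ran RMA (package oligo), and the deposited table gives 1 log2 value for each probe set and array; versions and a genome build are not given in the sources used here. Arrays have no read depth, and the array medians lay between 6.75 and 6.79. Of 41345 probe sets, 23521 had 1 gene symbol, 1814 several and 16010 none in the platform annotation; of those with 1 symbol 23328 matched the gene table of GRCm38.p6 by gene number. Genes above the median of all probe sets on at least 3 arrays were tested.

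The 3 groups entered a single linear model in limma 3.58.1 under R 4.3.3 (lmFit, eBayes), with two-sided tests and Benjamini-Hochberg adjustment over all 13012 tested genes. The predicted mixture was computed on the linear scale and tested by a contrast specific to each gene. The scripts were tested on simulated data. Nothing in the labels says what cultures or litters a replicate number stands for. The p-values rest on the spread between the 3 arrays of a group, pooled over the groups. Deviations from the group means were correlated across genes between same-numbered arrays. The correlations were 0.345, 0.300 and 0.161 for co-culture and precursors. They were -0.00511, 0.268 and 0.17 for co-culture and neurons, and 0.00431, 0.134 and -0.148 for neurons and precursors. Arrays of different numbers were not compared, so these values do not settle whether the numbers pair the groups. The main tests were unpaired. Alternatives were filters, scalings, array weights, the mean of a gene's probe sets, the replicate block, leaving out each array, and the genes behind the share. The named genes were all members, up to 3 neighbours per domain by size of difference and the 2 nearest patterns per member, with up to 2 genes per marker list by mean level; Rian, Mir673, Mir379, Mir411, Magel2, Peg12, Igf2, Sgce, Mkrn3, Nap1l4, Tssc4, Mir370, Dio3, Nap1l5, Peg13, Zdbf2, Cdh5 and Fcer1g were added after their values were seen. Of the cell markers, Bub1, Eomes, Neurog1, Pecam1, Kdr, Flt1, Tyrobp and Aif1 were also added after their values were seen. The members and lists were chosen with earlier results of these data known.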

Additional observations from a re-analysis of the deposited data

How the results depend on the processing

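The 6 lower genes and Meg3 kept their direction and passed between neurons and precursors under every alternative in which they were tested. A filter at the 75th percentile of the array left Cdkn1c, Dlk1 and Meg3 untested, and the mean of all probe sets left Plagl1 untested. Among members, the number higher in neurons than in precursors was 1, and 0 with that filter and 2 with cyclic loess; the number lower in the co-culture than in neurons was 1, and 0 with that filter and 2 with arrays centred on the tested genes; the number lower in the co-culture than in precursors was 0, and 1 with that centring, which was chosen after seeing the data and moved the all-gene median of co-culture minus neurons by -0.11. Leaving out 1 array gave 1 to 2 members higher and 6 to 7 lower in neurons than in precursors, 0 to 1 lower and 0 higher in the co-culture than in precursors, and 6 to 7 higher in the co-culture than in neurons. The replicate block changed no member's call.

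Over all tested genes, 26 were lower in the co-culture than in precursors, and 40 with no filter, 43 with the 75th percentile filter, 87 with array weights, 42 with the replicate block and 98 with arrays centred on the tested genes. The number higher there was 1069, and 692 with that centring, where 87.6% of calls were higher against 97.6%. In the co-culture 3236 genes were lower than in neurons, and 4925 with that centring. Above the predicted mixture were 47 genes, and 19 with no filter, 81 with the stricter filter, 100 with array weights, 29 with the block, 9 with the share from genes higher in neurons, 327 with that from genes higher in precursors and 9 with centring on tested genes; below it were 4, and in the same order 0, 1, 10, 2, 0, 8 and 0. With the stricter filter 1 gene lay above both cultures. Leaving out 1 array gave 676 to 1112 genes higher (676 without co-culture replicate 2) and 7 to 51 lower (7 without co-culture replicate 1, 10 without co-culture replicate 2, 14 without precursor replicate 2, 51 without neuron replicate 2) in the co-culture than in precursors, 9 to 48 above and 0 to 3 below the mixture, and 0 to 1 above both cultures. The cause of these shifts was not tested.

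Differences that changed sign had not passed. With the share from genes higher in precursors, the departures from the mixture were -0.0415 for Grb10, -0.0036 for Plagl1, -0.0046 for Ndn and -0.0031 for Dlk1; with that from genes higher in neurons, -0.0203 for Meg3; and with cyclic loess, -0.0073 for Ndn and -0.0105 for Peg10. With centring on the tested genes they were -0.0010 for Cdkn1c, -0.0133 for Grb10, -0.0274 for Plagl1, -0.0568 for Ndn, -0.0010 for Peg3, -0.0194 for Dlk1, -0.0629 for Peg10 and -0.0672 for Meg3, and co-culture minus precursors was -0.0091 for Cdkn1c, -0.0518 for Peg3 and -0.0318 for Peg10. Over the arrays left out, co-culture minus precursors ran between -0.0054 and 0.102 for Cdkn1c, -0.0513 and 0.0498 for Peg3, -0.0440 and 0.0031 for Mest, and -0.0118 and 0.106 for Peg10. The departures ran between -0.0080 and 0.0766 for Plagl1, -0.0159 and 0.0309 for Ndn, -0.0131 and 0.0798 for Dlk1, -0.0254 and 0.0720 for Peg10 and -0.0392 and 0.0462 for Meg3. Klf14, neurons minus precursors, ran between -0.0026 and 0.0746. Cd81, co-culture minus precursors, also did not pass with no filter (adjusted p = 0.0810), with centring on the tested genes (0.178) or without any of 5 single arrays (0.0577 to 0.117). Exactly repeated values between arrays come with the deposited summary and could not be undone from it.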

Other observations

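Among imprinted genes outside the members' domains, 5 of 18 tested were higher in the co-culture than in precursors and 0 were lower (limma, adjusted p), while 8.22% of all tested genes were higher. Kcnk9 averaged 8.40 in the co-culture, 10.04 in neurons and 7.14 in precursors, 2.39-fold higher in the co-culture than in precursors (adjusted p = 1.75e-04). Since its precursor arrays were not far above the array medians, this fold is uncertain too. Its value was exactly the same on all 3 co-culture arrays, and those of Nap1l5 and Zdbf2 on 2 of the 3, so their spread there may be too small. Nap1l5 was 1.42-fold higher (adjusted p = 0.00151), Peg13 1.24-fold (0.00576), and Zdbf2 1.16-fold (0.0266). Rasgrf1 read 7.29, 7.30 and 7.10 in the co-culture and 6.73, 6.41 and 6.72 in precursors, where no array was above the array median (adjusted p = 0.0103, or 0.0508 without co-culture replicate 2). It is among the 5 counted as higher, and passed the filter only through the cultures where it is high.

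Igf2 read 7.37, 7.98 and 7.27 in the co-culture, 7.01, 6.74 and 7.12 in neurons and 7.35, 7.34 and 7.31 in precursors, with co-culture replicate 2 the highest of the 9 arrays. It was higher in the co-culture than in neurons (log2 difference 0.58, limma, adjusted p = 0.0131), where 2 of 3 arrays were above the array median. Against precursors the difference of 0.21 did not pass (adjusted p = 0.643).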
